A study of Mus musculus with 2 samples.

Results

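Distal CpG-rich open regions of the aged mouse ovary are described here: stretches of chromatin open in both libraries, built like CpG islands, with no annotated gene start nearby. Open chromatin was mapped by DNase-seq, in which the nuclease DNase I cuts accessible DNA and the cut ends are sequenced. Both libraries came from whole ovary of female B6CASTF1/J mice, hybrids of C57BL/6 and CAST, aged 18 to 20 months, and are labelled biological replicates 1 and 2 of a single group. Their biosample entries differ and their donor entry is shared, so their spread may be technical, and neither young ovary nor another tissue is compared. A member was an autosomal region with overlapping peaks of both libraries in the longer deposited peak lists, over 2 kb from every GENCODE M21 transcript start of any type. The window of 250 bp either side of its midpoint had to have at least 55% GC and an observed to expected CpG ratio of at least 0.6. There were 619 such regions among 35817 distal and 63280 autosomal regions found in both libraries, which is 1.73% of the distal ones. They are set beside the 35198 other distal regions and beside 13811 CpG-rich regions within 2 kb of a start.

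CpG islands are stretches where the CpG dinucleotide has escaped the loss that methylation causes elsewhere in mammalian genomes. Most surround gene starts, stay unmethylated, and carry sites for factors such as SP and KLF proteins (the GC box), NRF1 and ETS proteins. Islands away from annotated genes are known as orphan islands, and many of them are known to start transcripts in some tissue or at some stage. Footprints are short stretches inside a DNase-sensitive region that are cut less than their flanks, often where a protein sits.

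The authors' peak signal is scaled for depth, in whole steps of 0.0108 in replicate 1 and 0.00782 in replicate 2, so replicate 2 was counted in finer steps. Total read depth is unknown. The longer lists held 95898 peaks in replicate 1 and 83982 in replicate 2. Promoters of all 6 ovary marker genes examined, Foxl2, Nr5a1, Gata4, Inha, Amh and Wt1, had a peak in both libraries. The same was true of 0 of 4 liver, 1 of 3 keratinocyte (Krt1), 0 of 3 macrophage, 0 of 3 T cell and 1 of 4 oocyte (Gdf9) markers. Whole ovary mixes cell types, so fewer cells of a type and a weaker site in each cell cannot be told apart.

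The sequences of 9 members are shown because they carry the patterns described afterwards: strong islands, footprinted NRF1, CREB and RFX matches, and islands that are coding sequence. They are plus-strand bases of build mm10, read from the RefSeq assembly GRCm38.p6, 5′ to 3′, and capitals mark bases inside footprints of both libraries. Regions over 300 bases are shown by their central 300.
Zfp395 side, chr14:65343741-65344020: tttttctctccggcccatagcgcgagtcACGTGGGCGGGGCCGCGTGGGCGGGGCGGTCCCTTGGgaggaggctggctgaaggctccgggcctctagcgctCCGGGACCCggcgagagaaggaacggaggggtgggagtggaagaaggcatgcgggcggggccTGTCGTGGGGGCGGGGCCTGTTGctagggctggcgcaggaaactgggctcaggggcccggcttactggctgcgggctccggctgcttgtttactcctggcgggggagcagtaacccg
Trappc9 side, chr15:73067491-73067790: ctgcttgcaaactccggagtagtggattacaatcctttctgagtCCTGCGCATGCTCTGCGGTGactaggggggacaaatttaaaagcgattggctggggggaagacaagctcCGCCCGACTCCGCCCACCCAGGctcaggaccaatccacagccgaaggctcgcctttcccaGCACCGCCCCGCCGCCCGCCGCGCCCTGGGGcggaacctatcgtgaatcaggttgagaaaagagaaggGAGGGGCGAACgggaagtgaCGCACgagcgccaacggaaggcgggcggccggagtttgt
C87436 exon, chr6:86472221-86472520: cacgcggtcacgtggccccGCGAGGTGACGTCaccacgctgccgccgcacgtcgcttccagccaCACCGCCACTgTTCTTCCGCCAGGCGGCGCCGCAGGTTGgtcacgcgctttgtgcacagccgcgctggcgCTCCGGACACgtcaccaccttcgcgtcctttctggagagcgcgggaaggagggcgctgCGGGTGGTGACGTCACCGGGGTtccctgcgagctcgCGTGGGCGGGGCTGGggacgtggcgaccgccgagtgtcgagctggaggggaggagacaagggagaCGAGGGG
Ccne1 side, chr7:38084881-38085180: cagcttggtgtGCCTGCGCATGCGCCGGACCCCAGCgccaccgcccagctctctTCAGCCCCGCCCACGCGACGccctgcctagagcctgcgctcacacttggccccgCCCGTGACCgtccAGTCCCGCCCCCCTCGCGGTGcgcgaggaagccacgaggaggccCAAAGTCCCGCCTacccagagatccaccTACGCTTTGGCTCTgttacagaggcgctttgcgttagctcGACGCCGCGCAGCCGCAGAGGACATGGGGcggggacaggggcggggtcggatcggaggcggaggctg
Kcnn1 side, chr8:70865621-70865920: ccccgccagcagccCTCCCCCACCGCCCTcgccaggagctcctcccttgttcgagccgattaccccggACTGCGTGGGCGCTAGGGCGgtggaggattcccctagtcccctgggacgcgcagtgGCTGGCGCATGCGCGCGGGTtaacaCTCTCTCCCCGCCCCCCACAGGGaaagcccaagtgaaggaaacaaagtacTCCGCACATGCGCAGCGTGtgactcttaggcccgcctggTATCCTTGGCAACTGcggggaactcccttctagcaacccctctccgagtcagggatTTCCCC
Cstad side, chr2:30658501-30658720: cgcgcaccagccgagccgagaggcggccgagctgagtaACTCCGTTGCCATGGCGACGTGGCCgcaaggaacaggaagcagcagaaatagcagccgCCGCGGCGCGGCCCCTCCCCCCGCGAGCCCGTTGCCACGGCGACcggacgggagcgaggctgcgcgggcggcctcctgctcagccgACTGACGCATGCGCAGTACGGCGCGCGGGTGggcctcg
Foxk1 side, chr5:142367301-142367560: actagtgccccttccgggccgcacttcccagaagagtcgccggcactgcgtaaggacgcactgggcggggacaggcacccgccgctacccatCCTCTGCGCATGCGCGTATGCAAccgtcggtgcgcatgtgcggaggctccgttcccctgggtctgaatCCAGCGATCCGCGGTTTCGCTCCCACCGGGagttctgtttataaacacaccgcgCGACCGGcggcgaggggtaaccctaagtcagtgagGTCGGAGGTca
Amh coding exon, chr10:80807361-80807600: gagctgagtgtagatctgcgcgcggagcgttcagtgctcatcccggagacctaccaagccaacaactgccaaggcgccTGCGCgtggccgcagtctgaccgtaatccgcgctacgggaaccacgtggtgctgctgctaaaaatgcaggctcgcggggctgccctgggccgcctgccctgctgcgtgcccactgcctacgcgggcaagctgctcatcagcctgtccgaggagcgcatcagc
Apba1 coding exon, chr19:23893241-23893538: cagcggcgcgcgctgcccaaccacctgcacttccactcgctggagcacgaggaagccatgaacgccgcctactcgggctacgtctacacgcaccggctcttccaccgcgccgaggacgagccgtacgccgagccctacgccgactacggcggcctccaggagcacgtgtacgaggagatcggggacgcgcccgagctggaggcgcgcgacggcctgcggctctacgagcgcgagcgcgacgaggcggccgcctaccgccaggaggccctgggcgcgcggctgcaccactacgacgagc

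The capitals cover different shares of these sequences. On the Cstad side 100 of 220 bases lay in footprints of both libraries, on the Ccne1 side 131 of 300, and in C87436 105 of 300. In the Amh exon it was 5 of 240 bases, and in the Apba1 exon 0 of 298.

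Distal CpG-rich regions were more open than other distal regions and less open than CpG-rich regions near starts. Their median peak signal was 1.81 in replicate 1 and 1.67 in replicate 2, against 0.915 and 0.797 in other distal regions and 2.98 and 2.99 in CpG-rich regions near a start. Averaged over the libraries this was 1.74 ± 0.0961, against 0.856 ± 0.0833 and 2.99 ± 0.00823 (SD, n = 2 libraries). The gap between each pair of sets was larger than the spread between the libraries, which allow no test of it. The middle 50% of distal CpG-rich regions ran from 0.969 to 3.74 in replicate 1 and from 0.856 to 3.75 in replicate 2, and the extremes were 0.258 and 13.4 in replicate 1 and 0.258 and 21.5 in replicate 2. A signal above the median of all shared regions in both libraries was found in 391 of 619 distal CpG-rich regions (63.2%), against 26.7% of other distal regions and 74.9% of CpG-rich regions near a start.

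**Figure D1:**
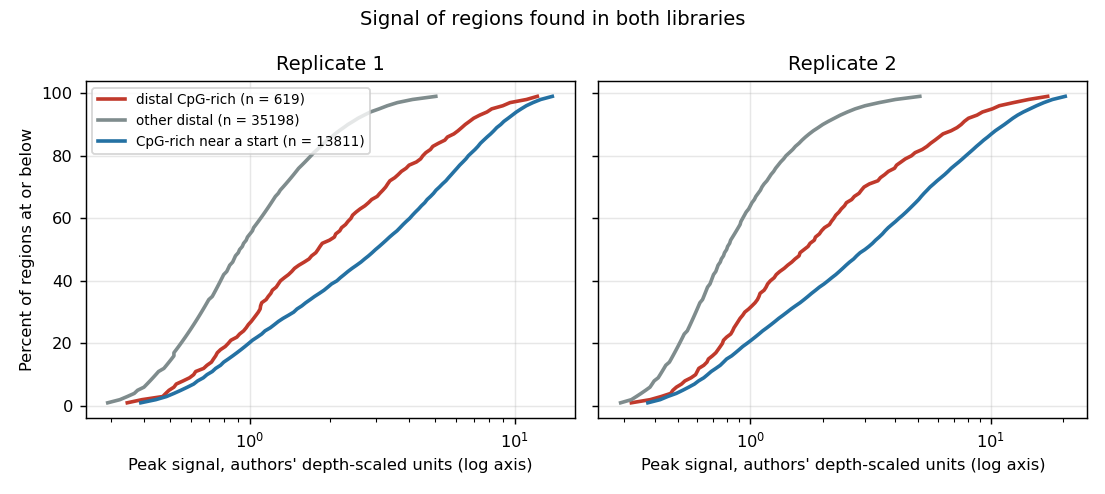
Cumulative share of regions (vertical axis, percent) at or below each peak signal (horizontal axis, authors' depth-scaled units, log scale), with replicate 1 at left and replicate 2 at right. In both libraries the curve of the distal CpG-rich regions lies between that of the other distal regions and that of the CpG-rich regions near a start.

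The shorter, stricter peak lists of both libraries held 481 of 619 distal CpG-rich regions (77.7%), where 54.4% of all distal shared regions were held. Widths had a median of 260 bp, against 209 bp in other distal regions and 260 bp in CpG-rich regions near a start. Within the distal CpG-rich regions, signal was almost unrelated to the features that define them. Spearman's rho of signal with GC was -0.0225 in replicate 1 and 0.0515 in replicate 2, and with the CpG ratio 0.0757 and 0.0535, across 619 regions that share the same libraries. GC had a median of 63.3% and the CpG ratio a median of 0.737.

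Most CpG-rich sequence far from starts was not open. The autosomes were divided into windows of that length, and 4487 distal windows passed the same GC and CpG limits. A shared region covered the midpoint of 327 of them (7.29%, Wilson 95% interval 6.56 to 8.09), against 0.379% of all distal windows and 36.2% of CpG-rich windows within 2 kb of a start. Intervals here and elsewhere cover counting error only. Openness differed between repeat and other sequence: of the 2269 windows with over 50% soft-masked repeat bases 1 was open (0.0441%), against 326 of the 2218 others (14.7%, 13.3 to 16.2). How well reads map to such repeats was not tested. The midpoint count misses windows that a region touches only at the side. No peak base of either library lay in 3687 of the 4487 windows (82.2%), and in 1429 of the 2218 at most 50% repeat (64.4%). Only 2 of the 619 members were mostly repeat, and their median repeat content was 4.59% of the window.

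Openness of CpG-rich windows fell with distance from a start up to 2 kb and then showed no clear further trend. Among windows at most 50% repeat, 42.6% of those containing a start were open. The share was 26.8% up to 500 bp away, 26.1% up to 1000 bp and 20.0% up to 2000 bp. Beyond that it was 13.4% up to 5000 bp, 15.5% up to 10000 bp, 16.3% up to 20000 bp, 14.5% up to 50000 bp and 16.2% farther out, where there were 74 windows. The 5 distal intervals overlap one another. Among the distal windows the shares differed by place: 22.2% of intergenic ones were open (19.4 to 25.1), against 11.9% in introns (9.35 to 15.1) and 9.51% in exons (7.77 to 11.6).

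**Figure D2:**
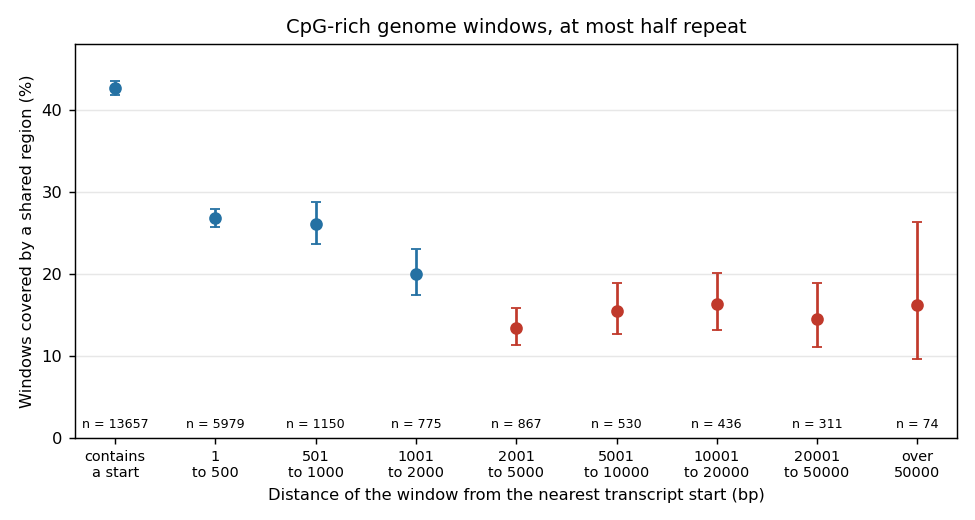
Share of CpG-rich windows with at most 50% repeat bases that a shared region covers (vertical axis, percent), by distance from the nearest transcript start in bp; bars are Wilson 95% intervals, red marks distances over 2 kb and blue shorter ones. The share is 42.6% for windows containing a start and between 13.4% and 16.3% in every interval beyond 2 kb.

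The members were spread over all 19 autosomes and mostly stood alone. Chromosomes 4 and 11 held 68 each and chromosome 2 held 62, while chromosome 10 held 15. Per megabase of chromosome this was 0.557 on chromosome 11, 0.434 on chromosome 4 and 0.106 on chromosome 3, the sparsest. With members up to 50 kb apart joined, 398 stood alone and 8 clusters held at least 4. The largest, 6 members on chromosome 7, ran through Ltbp4, which encodes a binding protein of latent TGF-beta, and Sptbn4, which encodes a spectrin. A cluster of 5 on chromosome 11 lay in and beside Kdm6b, the gene of a histone H3 lysine 27 demethylase. Its members had signals of 2.84, 1.17, 5.89, 5.52 and 5.53 in replicate 1 and 1.83, 0.969, 4.38, 7.30 and 10.7 in replicate 2. These clusters were singled out after their members had been counted.

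Intergenic sequence held 353 of the 619 members (57.0%), where 45.8% of all distal shared regions lay. Introns held 117 (18.9%), where the share of all distal shared regions was 48.7%. Exons held 149 (24.1%), against 5.12% of other distal regions. Most of these lay in coding sequence: 111 members (17.9%, 15.1 to 21.1), where the share of all distal shared regions was 2.12%. A further 25 lay in UTRs and 13 in exons of noncoding transcripts. The rule selects for GC and CpG, which can by itself shift this split. The genome windows that passed the same limits, open or not, give the scale: 915 of the 2218 with at most 50% repeat were exonic, and of the 326 open ones 87 were.

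The coding members were weaker than the others. Their median signal was 1.10 in replicate 1 and 0.985 in replicate 2, against 2.28 and 2.02 for intergenic members and 1.78 and 1.66 for intronic ones. The 13 members in noncoding exons were the strongest class, with medians of 4.31 and 4.28. Coding members made up 3.90% of the top signal quartile and 28.4% of the bottom one.

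The 3 members with the highest CpG ratios were all coding. In the exon of Zfp771, which encodes a zinc finger protein, a region at chr7:127254061-127254380 had a CpG ratio of 1.31. Its signal was 5.55 in replicate 1 and 7.89 in replicate 2, and its nearest start is that of Dctpp1, a pyrophosphatase that clears dCTP. The exonic regions of Apba1, an adaptor protein of synapses, and C1qtnf4, a secreted member of the C1q and TNF related family, had ratios of 1.24 and 1.23. Both were weaker than the lower quartile of the members, at 0.484 and 0.578 for Apba1 and 0.517 and 0.727 for C1qtnf4 in replicates 1 and 2.

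Lack of a start in GENCODE M21 was not lack of one in every annotation. RefSeq, on the same assembly, placed a transcript start within 500 bp of 108 of the 619 members (17.4%), where this held for 3.1% of all distal shared regions. In 55 members the start lay inside the region, and 168 had one within 2 kb. The remaining 451 lay over 2 kb from starts of both annotations. Median signal was 2.03 in replicate 1 and 2.16 in replicate 2 for the 108 near a RefSeq start, against 1.72 and 1.51 for the 451 (replicates 1 and 2). Averaged over the libraries this was 2.10 ± 0.0895, against 1.62 ± 0.151 (SD, n = 2 libraries). The gap was larger than the spread between the libraries, which allow no test of it, and its cause was not tested. A GENCODE transcript end lay within 2 kb of 28.6% of members, against 12.6% of other distal regions and 33.1% of CpG-rich regions near a start.

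The CpG-rich stretch around a member was usually longer than the window that defined it. Extended in steps of 10 bp while the window still passed, it had a median of 981 bp and reached 3381 bp at most. In 49 members it reached to within 2 kb of a start, and in 2 it held one. The median distance of members from the nearest start was 7.3 kb, against 13.2 kb for other distal regions, and 111 members lay over 20000 bp from any.

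Values close to the limits show what the rule decides. At the distance limit the members just inside lay 2003 bp from a start (nearest protein-coding gene Rnf39, signals 0.990 and 1.14) and 2006 bp (Nup160, 4.91 and 3.42). Just outside were regions 1992 bp away (Alox5ap, 13.1 and 14.1) and 1972 bp away (Rpp21, 1.75 and 1.18). At the GC limit, the 2 members just inside, at 55.1%, had signals of 3.34 and 2.06 near Shisa4 and of 1.15 and 2.43 near Sept9. Just outside, at 54.9%, the values were 5.75 and 4.28 near Tuba1c and 1.01 and 0.985 near Cd80. At the CpG limit, the members near Vmn2r86 and Gas2l1, with a ratio of 0.6, had signals of 0.280 and 0.258 and of 6.39 and 6.22. The regions just below it, near Nkd1 (0.5999) and Mgst2 (0.5995), had 0.538 and 0.743 and 1.13 and 0.836. Each pair of signals is given for replicate 1 and then replicate 2.

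The strongest members were as open as strong promoters and lay beside genes of very different roles. By mean rank over the libraries the strongest was an intergenic region at chr14:65343741-65344020, 14.4 kb from the start of Zfp395, a zinc finger gene, with signals of 13.2 in replicate 1 and 19.8 in replicate 2. Its sequence holds GC boxes in footprints of both libraries. The region with the highest signal in replicate 2 lay 6.24 kb from the start of Trappc9, which encodes a subunit of a vesicle transport complex, with 12.2 in replicate 1 and 21.5 in replicate 2.

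A region at chr15:85634661-85634840, in the intergenic space on the side of Wnt7b, a WNT ligand gene 52.2 kb away, had 12.5 and 19.4 in replicates 1 and 2. RefSeq places the start of a transcript named D130051D11Rik 65 bp from it. A region in an exon of a noncoding transcript of C87436 had 12.5 and 17.3, and an intergenic region 14.2 kb from Ccne1, the gene of the cell cycle regulator cyclin E1, had 12.3 and 18.3. All 5 were stronger in replicate 2, by 0.47 to 0.82 on the log2 scale.

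The next 7 had signals of 10.8 to 13.4 in replicate 1 and 13.3 to 20.2 in replicate 2. Their nearest protein-coding starts were those of Tmem120b, Ptma (prothymosin alpha), Kcnn1 (a calcium-activated potassium channel), Ctdsp1 (a small phosphatase of the RNA polymerase II tail), Cstad, Socs3 (a feedback inhibitor of cytokine signalling) and Prdm2 (a histone methyltransferase). The Cstad start was 53.3 kb away and the Ptma start 39.0 kb. The Cstad region itself lay in a noncoding exon within 9330198N18Rik and Gm14486. The regions of Kcnn1 and Prdm2 contain a RefSeq start of those genes, missing from GENCODE M21. The Tmem120b region, in an intron of Gm26745, was only 60 bp wide. The Socs3 region, 5.49 kb from the start, had 12.1 and 13.3, and the Ptma region 13.4 and 13.8, so these were nearly equal in the libraries.

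The libraries ranked the members alike. Spearman's rho between the signals of replicate 2 and replicate 1 was 0.942 over the 619 members, against 0.743 over other distal regions and 0.972 over CpG-rich regions near a start. The members have a wider spread of signal than other distal regions, which by itself raises such a coefficient. By the log2 ratio of replicate 2 to replicate 1, which does not depend on that spread, the SD was 0.47 in members, 0.62 in other distal regions and 0.38 in CpG-rich regions near a start. A ratio within 2-fold of the set's median held for 599 members (96.8%), against 88.7% of other distal regions.

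The ratio moved with signal strength. Of the 154 members in the top signal quartile, 114 were higher in replicate 2, with a median log2 ratio of 0.23. In the bottom quartile 64 of 155 were higher in replicate 2, with a median of -0.11. CpG-rich regions near a start did the same, with a median of 0.36 in their top quartile and -0.03 in their bottom one, while other distal regions had -0.09 and -0.05. The quartiles were formed from the same signals, and the cause was not tested.

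**Figure D3:**
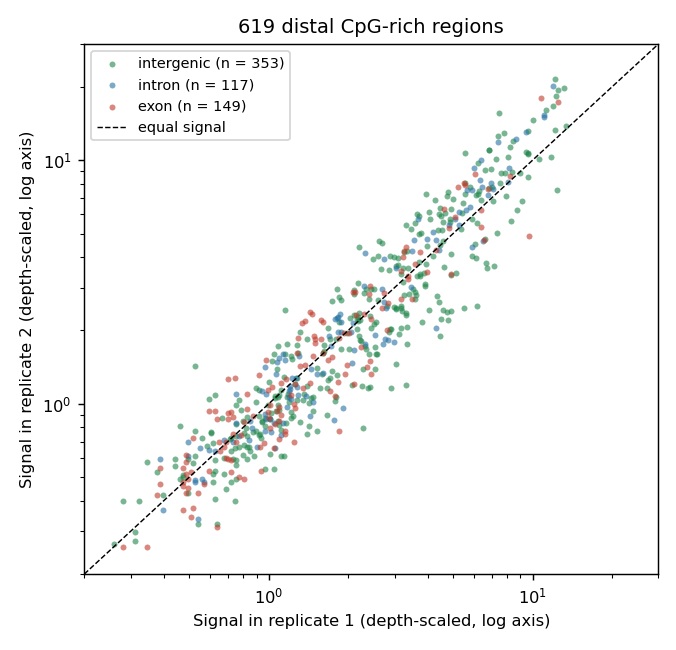
Signal in replicate 2 (vertical axis) against replicate 1 (horizontal axis), both in depth-scaled units on log scales, for the 619 members coloured by genomic class; the dashed line marks equal signal. Points scatter about the line by a similar amount at low and high signal, and most of the strongest lie above it, where replicate 2 is higher.

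Members carried footprints more often than other distal regions. At least 1 footprint was found in 552 of 619 in replicate 1 (89.2%) and 584 in replicate 2 (94.3%), against 81.9% and 88.5% of other distal regions and 86.6% and 89.4% of CpG-rich regions near a start. A footprint of one library overlapped one of the other in 468 members (75.6%, 72.1 to 78.8), where the share of all distal shared regions was 58.7%. Footprints covered 14.5% and 16.8% of member bases in replicates 1 and 2, against 10.3% and 11.2% in other distal regions and 16.5% and 18.5% in CpG-rich regions near a start.

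The share with overlapping footprints rose with signal in both sets. Among regions with a mean signal from 0.5 to 1, overlapping footprints were present in 49.7% of 149 members and 45.9% of other distal regions. From 1 to 2 the order turned, with 72.5% of 153 members and 83.8% of other distal regions. From 2 to 4 it was 95.7% and 96.5%, and above 4 it was 100% and 99.7%. Within bands of signal the members were thus not uniformly above other distal regions. The part of signal in the higher share over all members was not tested.

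The 4 regions with the most footprints were not among the 12 strongest. They were 340 to 860 bp wide, against a member median of 260 bp, and ranked 24, 118, 141 and 343 of 619 in signal. Footprints per 100 bp rose with signal in members. Their medians were 0 and 0.448 in replicates 1 and 2 at mean signals up to 0.5, and 1.67 and 1.82 above 4. The region nearest Pkdcc, a secreted kinase, was 860 bp wide and held 5 footprints in replicate 1 and 14 in replicate 2 at signals of 1.59 and 1.32. One nearest Glis2, a zinc finger gene, held 7 and 11 at signals of 7.48 and 15.6. One nearest Hes1, a transcriptional repressor downstream of Notch, held 10 and 7 at signals of 3.32 and 5.42, and one nearest Azin1, an antizyme inhibitor, held 9 and 8 at 4.07 and 5.73. The Glis2 region differed most between the libraries of these 4, with a log2 ratio of 1.06.

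The members, like the CpG-rich regions near a start, passed GC and CpG limits that other distal regions fail, so the shares of GC-rich and AT-rich motifs in these sets are partly set by the rule. The distal CpG-rich windows at most 50% repeat without a peak, which passed the same limits, are therefore given beside them. They were not matched to the members in GC above the limit or in genomic class. Of all 2218 distal CpG-rich windows at most 50% repeat, open or not, 922 had GC from 0.55 to below 0.60, and 915 were exonic. The lower quartile of GC in the members was 59.9%, and 24.1% of members were exonic. The parts of GC and of genomic class in the motif differences were not tested. Exact matches to 21 consensus motifs were sought on both strands of the windows of 250 bp either side of the midpoint, and a match is a description of letters, not a bound site. Beside those spelled out with their values these were EGR and WT1 (GCGTGGG, whose end can overlap a GC box), E2F (TTTNNCGC), forkhead (TGTTTAC), TEAD (GGAATGT), RUNX (TGTGGTT), and by name YY1, NFY, ZBTB33, REST and the estrogen and glucocorticoid-type receptors. The GC box (GGGCGG) of SP and KLF factors was present in 463 members (74.8%), where 14.9% of all distal shared regions held it. It was in 85.1% of CpG-rich regions near a start and in 53.4% of the 1429 distal CpG-rich windows at most 50% repeat without a peak base in either library. The NRF1 motif, read as GCGC, 1 free base and TGCGC, was in 46 members (7.43%, 5.62 to 9.77), where the share of all distal shared regions was 0.503%. It was in 11.6% of CpG-rich regions near a start and 3.15% of the windows without a peak (2.36 to 4.19). The ETS motif CCGGAAG was in 73 members (11.8%), where 3.27% of all distal shared regions held it. CpG-rich regions near a start had it in 20.3% and windows without a peak in 9.10%, so the interval of the members (9.48 to 14.6) overlaps that of the windows without a peak (7.71 to 10.7).

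The GATA, AP-1 and NR5A motifs were scarcer in the members than in all distal shared regions, most of which fail the GC and CpG limits. The GATA motif (GATAA after any base) was in 137 members (22.1%), where the share of all distal shared regions was 51.9%, and in 22.8% of windows without a peak. The AP-1 motif TGANTCA was in 51 (8.24%), where the share of all distal shared regions was 21.9%, and in 4.90% of windows without a peak. NR5A (CAAGGTCA), the motif of steroidogenic factor 1 and its relative, was in 19 (3.07%), where the share of all distal shared regions was 9.45%, and in 1.89% of windows without a peak. For GATA, then, CpG-rich distal windows with and without peaks had much the same share. AP-1 was more frequent in members (6.32 to 10.7) than in windows without a peak (3.90 to 6.14), with intervals that do not overlap. Among members the AP-1 motif was in 0.901% of the 111 coding and 9.63% of the 353 intergenic ones, and the windows were not matched in class. For NR5A the intervals overlap (1.97 to 4.74 and 1.30 to 2.74). The CTCF motif, read as CCA, 2 free bases, AG, 2 free bases and GGC, was in 50 members (8.08%, 6.18 to 10.5), where 13.2% of all distal shared regions held it. Its share was 5.02% in CpG-rich regions near a start and 3.36% in windows without a peak (2.54 to 4.43).

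Several other motifs were more frequent in the members than in CpG-rich distal windows of the same length without a peak, with intervals that do not overlap. The NFY motif was in 5.01% of members (3.55 to 7.02) and 0.840% of such windows. The RFX motif, read as GTTGCC, 2 free bases and GG, was in 5.33% (3.82 to 7.39) and 1.47%, and the CREB motif TGACGTCA in 2.75% (1.72 to 4.35) and 0.840%. RFX was also at 3.74% in CpG-rich regions near a start, with an interval (3.43 to 4.07) that overlaps the members'. For the E-box CACGTG the shares were alike, 16.8% in members (14.1 to 19.9) and 16.03% in windows without a peak (14.2 to 18.0). The YY1 motif was in 1.78% of members, against 0.506% of other distal regions and 6.84% of CpG-rich regions near a start, and the ZBTB33 motif in 0.323%, against 0% and 0.963%. The estrogen receptor consensus was found in 0 members, which allows a share of up to 0.617%, and in 0.427% of all distal shared regions, so no difference was detectable.

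**Figure D4:**
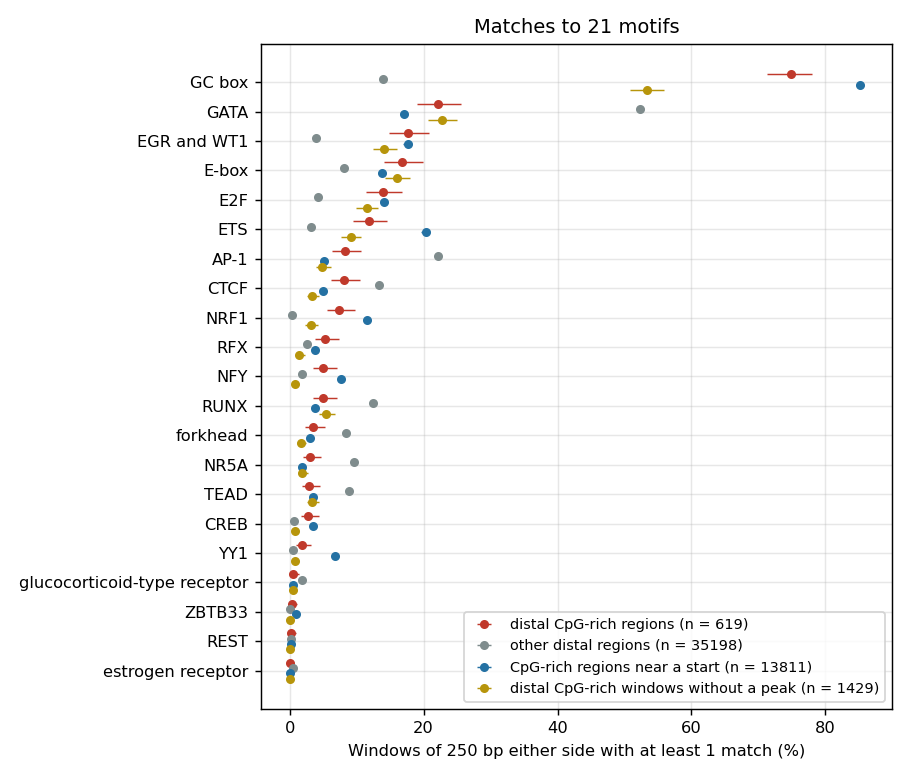
Share of windows (250 bp either side of the midpoint) with at least 1 match to each of 21 motifs (horizontal axis, percent) in distal CpG-rich regions, other distal regions, CpG-rich regions near a start and distal CpG-rich windows without a peak; bars are Wilson 95% intervals. For the GC box the members sit at 74.8%, against 13.9% of other distal regions, and for GATA at 22.1%, against 52.4%.

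The share of matches that lay in footprints differed between motifs. Of 48 NRF1 matches inside the regions themselves, 33 had their centre in a footprint in replicate 1 and 33 in replicate 2 (68.8% each), against 69.5% and 75.2% in other distal regions and 82.1% and 85.8% in CpG-rich regions near a start. Of 45 CTCF matches it was 33 and 31 (73.3% and 68.9%), against 78.7% and 64.8% in other distal regions. Of 17 CREB matches it was 13 in each library (76.5%), against 42.2% and 55.2% in other distal regions. Of 29 RFX matches it was 14 and 17 (48.3% and 58.6%), against 24.7% and 38.7%. CpG-rich regions near a start had 79.6% and 81.3% for CREB, 38.7% and 42.9% for RFX and 45.6% and 47.4% for CTCF. For CTCF the gap between members and other distal regions was smaller than the spread between libraries. ETS and NFY matches were footprinted less often: 14 and 10 of 57 ETS matches (24.6% and 17.5%), against 12.5% and 13.7% in other distal regions, and 3 and 5 of 30 NFY matches (10% and 16.7%), against 9.70% and 17.2%. Of 36 AP-1 matches 2 lay in footprints in each library (5.56%), against 12.6% and 11.1%, and of 69 GATA matches 8 and 6 (11.6% and 8.70%), against 5.82% and 6.68%. Of 818 GC boxes 254 and 310 did (31.1% and 37.9%), against 22.9% and 29.8% in other distal regions. In CpG-rich regions near a start the shares were 29.8% and 33.7% for ETS, 23.5% and 31.4% for NFY and 38.4% and 44.1% for GC boxes. For AP-1 they were 9.50% and 9.28%, and for GATA 10.1% and 10.8%. Footprints covered 14.5% and 16.8% of member bases, which is the level to set these shares against.

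The sequences printed above show single cases. In the Ccne1 region the NRF1 match lies in the capitals near the 5′ end. Both NRF1 matches of the Kcnn1 region, of which 1 lies 3′ of the printed stretch, and the 1 of the Foxk1 region, 33.9 kb from the start of that forkhead gene, also had their centres in footprints of both libraries. The Cstad region holds 2 RFX matches, both footprinted in both libraries, and both CREB matches in C87436 were as well. In the Ptma region, which is not printed, both NRF1 matches lay in footprints of replicate 1 and outside those of replicate 2.

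Members with an NRF1, ETS or NFY match were stronger than those without, and this was not limited to these motifs. The 46 with an NRF1 match had median signals of 3.36 in replicate 1 and 3.29 in replicate 2, against 1.74 and 1.60 in the 573 without. The 73 with an ETS match had 3.32 and 2.95, against 1.64 and 1.51. The 31 with an NFY match had 3.97 and 5.51, against 1.74 and 1.60. For GATA matches the medians lay closer together and the other way round, at 1.71 and 1.49 with a match and 1.84 and 1.75 without. The 50 members with a CTCF match had 2.54 and 1.81, against 1.74 and 1.61 without. The 22 with a forkhead match had 3.33 and 2.41, where all 619 members had 1.81 and 1.67. The 109 with an EGR and WT1 match had 1.71 and 1.67, and the 86 with an E2F match 1.70 and 1.82. NRF1 matches were in 14.3% of the top signal quartile and 3.87% of the bottom one, and ETS matches in 20.1% and 3.23%.

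**Figure D5:**
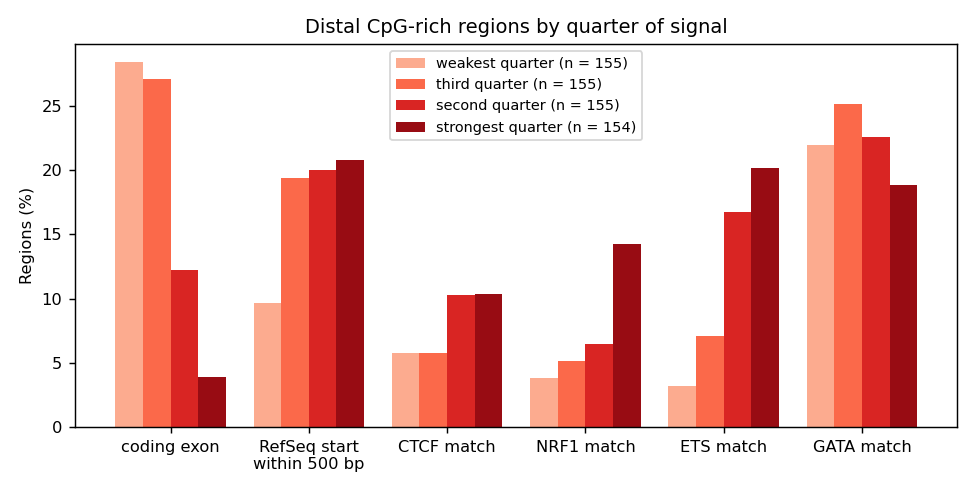
Share of members (vertical axis, percent) with each feature by quartile of signal, weakest at left and strongest at right within each group of bars. Coding exons fall from 28.4% of the weakest quartile to 3.90% of the strongest, while NRF1 matches go from 3.87% to 14.3% and ETS matches from 3.23% to 20.1%.

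The library difference also varied between members with different motifs. Of the 31 members with an NFY match 27 were higher in replicate 2, with a median log2 ratio of 0.47, against 279 of the 588 without and a median of -0.04. The top signal quartile of members had 0.23. NFY matches in other distal regions had a median of 0.04, with 344 of 654 higher in replicate 2, and those in CpG-rich regions near a start, where signal is also high, had 0.32. Of the 50 with a CTCF match 13 were higher in replicate 2, with a median of -0.27 (SD 0.41 over the 50 regions). Of the 569 members without one it was 293, with a median of 0.01. CTCF matches in other distal regions had a median of -0.84, with 613 of 4691 higher in replicate 2, while in CpG-rich regions near a start it was 0.03. With or without a match, 43.7% of other distal regions were higher in replicate 2, with a median of -0.09. In all CpG-rich regions near a start the median was 0.10. With 1 library on each side these ratios describe the 2 libraries and have no replicate check, and the cause was not tested.

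Genes of development and signalling were near members more often than near distal regions in general, though most members lay elsewhere. Gene shares were not computed for CpG-rich windows without a peak, so the part of the GC and CpG limits was not tested. The nearest protein-coding start belonged to a listed developmental transcription factor family in 28 members (4.52%, 3.15 to 6.46), where the share of all distal shared regions was 1.47%. They included Sox4, Foxc1, Nr2f1, Nr2f2, Lhx1, Lhx6, Pax3, Pax8, Msx2, Six3 and Hoxc4. Some were close neighbours, such as the pairs nearest to Foxk1 and to Nr2f1, which the interval counts as independent. Of the 28, 18 had signals below the member medians in both libraries, and the same share over all members was not computed. The libraries ranked the 619 members alike (Spearman's rho 0.942), so many of all members also lie below both medians. The count of 18 is therefore not read as a trait of these genes. The strongest of the 28 was that of Foxk1, at 9.58 in replicate 1 and 8.54 in replicate 2. Signalling families accounted for 15 members (2.42%), against 0.768% of all distal shared regions. Of these 8 lay nearest to WNT ligand genes, namely Wnt7b, Wnt10a and Wnt11 with 2 each, and Wnt2b and Wnt10b. The imprinted list had 3 members, nearest to Trappc9, H13 and Cdkn1c (0.485%, 0.165 to 1.42), against 0.254% of all distal shared regions, which lies within that interval. Clustered protocadherins had 0, against 0.00558% of all distal shared regions.

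Regulators of the gonad were nearest to 4 members (0.646%, 0.252 to 1.65), close to the 0.489% of all distal shared regions, so the members are described singly. In the coding sequence of Amh, which encodes the anti-Müllerian hormone of granulosa cells, a region at chr10:80807361-80807600 lay 2.12 kb from the start with signals of 2.12 in replicate 1 and 2.87 in replicate 2. Its NRF1 match had its centre in a footprint of both libraries, seen as the capitals TGCGC in the sequence. Within Gata4, a transcription factor gene of somatic gonad cells, a region 10.7 kb from the start had 2.76 and 1.85. A region whose nearest coding start was that of Gata6, the relative of Gata4, lay 180.8 kb away with 1.04 and 1.60, and one 6.2 kb from Emx2, a homeobox gene of the early gonad, had 0.710 and 0.719. Nearest position does not show which gene, if any, a region acts on.

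Near-identical copies elsewhere in the genome, at 95% identity or more over at least 80% of the window, existed for 13 members. Their signal is uncertain because reads can map to several copies. None of the 21 members named by rule was among them.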

How the data were processed

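DNase-seq peaks, footprints and false discovery rates of 2 ovary libraries were used as the authors deposited them on build mm10. The deposited peak value is a signal scaled for depth; 100% of values were whole multiples of a step per library, within 0.05 of a step. The deposited false discovery rates per base are p-value type numbers listed below 0.05, and 0.01 stands as p-value label on every deposited footprint. Aligner, callers and handling of CAST alleles: not given in the sources used here. Peaks of both libraries were merged at 1 bp overlap, and a region took its strongest peak's signal per library. Starts came from GENCODE M21, and RefSeq starts, sequence and repeat masking from GRCm38.p6. Footprints were assigned by midpoint. Near-identical copies were sought with BLAST 2.17.0. Values were computed with pandas 2.3.3, NumPy 2.4.6 and SciPy 1.17.1 under Python 3.11.15, plotted with Matplotlib 3.10.9, and the steps were checked on simulated data. With 1 group of 2 libraries no test between groups exists. Members and lists were chosen with earlier results of these data known. Regions named are the 12 strongest, the 4 with most footprints, the 3 with the highest CpG ratio, the strongest of each gene list and those at each threshold; the clusters and other list members were named after their values were seen. Alternatives were the shorter lists, other overlaps, distances, starts, windows and limits, repeats or near-identical copies left out, and each library alone.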

Additional observations from a re-analysis of the deposited data

Results flagged for a closer look

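Regions that met the same distance, GC and CpG limits but had a peak in a single library lie outside the comparisons above. Replicate 1 alone had 109 of them, with a median signal of 0.495 and a range of 0.237 to 1.81. Replicate 2 alone had 113, with a median of 0.508 and a range of 0.172 to 1.56. Of the distal CpG-rich regions of replicate 1, 85.0% were found in both libraries, against 63.4% of all its distal regions. For replicate 2 the shares were 84.6% and 75.1%. The highest single-library signals were close to the median of the members found in both libraries. Why these were found in 1 library was not tested.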

How the results depend on the processing

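Of 249 values under alternatives, 190 were counted as unchanged, 59 as moved and 0 as reversed. Only the ratio of member to other distal signal compares 2 sets and could reverse. For signals and shares, unchanged meant within the spread or counting interval of the main value. The number of members, 619 in the main setting, had a wider margin. It counted as unchanged at 856 with a window of 150 bp either side and 804 at a GC limit of 0.5. So it did at 744 without replicate 1, 743 without replicate 2 and 483 with the shorter lists. The same held for 449 at a GC limit of 0.6 and 451 with RefSeq starts also kept away. The number of members moved to 396 beyond 5 kb, 994 with protein-coding starts only, 281 with a CpG ratio of 0.75 and 369 with a window of 500 bp either side. Their share of distal regions was 2.48% with the shorter lists, 1.38% beyond 5 kb, 2.54% with protein-coding starts only, 2.24% and 1.25% at a GC limit of 0.5 and 0.6, 0.785% with a CpG ratio of 0.75, 2.39% and 1.03% with windows of 150 and 500 bp either side, and 1.35% with RefSeq starts also kept away. Leaving out either replicate gave 1.30% to 1.55%. Mean member signal was 2.33 with the shorter lists, 1.92 with a reciprocal overlap of 50%, 1.85 with protein-coding starts only, 1.93 with a CpG ratio of 0.75, 1.62 with RefSeq starts kept away and 1.27 to 1.31 with 1 replicate. The ratio of member to other distal signal was 2.04 and ranged from 1.87 to 1.91 with 1 replicate; it was 1.91 with the shorter lists, 2.12 beyond 5 kb, 2.15 with protein-coding starts only, 2.24 with a CpG ratio of 0.75 and 1.91 with RefSeq starts kept away. Members stayed above other distal regions in each of these.

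The share with a footprint was 80.3% without replicate 2 and 88.2% without replicate 1. Overlapping footprints were in 86.3% with the shorter lists and 71.8% with the longest window. Both shorter lists held 100% of members by construction when they defined them, 83.2% with a reciprocal overlap of 50% and 72.4% to 74.97% with 1 replicate. Exons held 18.9% beyond 5 kb, 27.8% with protein-coding starts only, 20.8% at a GC limit of 0.5, 29.5% with a CpG ratio of 0.75, 30.1% with the longest window and 28.8% with RefSeq starts kept away. The open share of CpG-rich windows was 5.33% with the shorter lists, 5.59% with a reciprocal overlap of 50%, 6.37% and 6.31% with peaks of replicate 1 or replicate 2 as regions, 6.05% beyond 5 kb, 9.54% with protein-coding starts only, 4.40% at a GC limit of 0.5, 12.4% with a CpG ratio of 0.75, 14.7% without repeat-rich windows and 6.95% to 7.02% with 1 replicate. The causes of these shifts were not tested.

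The RefSeq and copy alternatives were chosen after seeing the data. The open share was not run for the other window lengths, nor overlapping footprints with 1 replicate. No paired analysis was possible because there is a single group. Depth is unknown, the libraries share a donor entry, and 2 libraries give an SD but no test. Effects of GC content, of repeat mapping and of CAST alleles on peak calling were not tested.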
